A study of Homo sapiens with 5 samples.

Results

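The regions described here are replication origins that scored low after a long reaction but had already been called after a short one. They were chosen by measured values, as the intervals of the 3-hour ini-seq 2 list that belonged to the lowest of 3 efficiency classes of equal size and that shared at least 1 bp with an interval of the 15-minute list. This rule gave 363 of the 7980 low-efficiency intervals, and 363 of the 23905 intervals of the 3-hour list. The comparison group was the other 7617 low-efficiency intervals, which shared no base with a 15-minute interval. Efficiency, the 15-minute calls, interval length and the extent of overlap all enter this choice, so they are given below as descriptions without a test.

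Ini-seq 2 is a cell-free assay in which nuclei from the human bladder carcinoma line EJ30, taken from cells arrested in late G1 phase with mimosine, began DNA replication when a cytosolic extract of HeLa cells was added. The nucleotide mix held Br-dUTP and no dTTP. New strands were therefore denser than old ones, and caesium sulfate gradients parted the DNA into a heavy-light fraction (HL) with a new strand and a light-light fraction (LL) with none, each of which was sequenced. A list each was used for the reaction of 3 hours, the reaction of 15 minutes, and the peaks of short nascent strands (SNS-seq) of 0.5 to 2 kb and of 2 to 4 kb, isolated from the same cell line. All conditions therefore concern 1 cell line, with 1 list per condition and no reads or counts, so neither the depth behind an interval nor the spread between replicates could be given. The efficiency is the share of HL among HL and LL reads, and only intervals of at least 0.8 were kept by the origin caller. The 15-minute score is a Z-score over its own list, which ranks the intervals of that reaction but cannot be set on the efficiency scale.

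A replication origin is a site where the helicases loaded in G1 phase are activated and a pair of forks leaves in opposite directions. Many human origins lie near gene starts in CpG islands, stretches rich in G and C in which the dinucleotide CpG has escaped the depletion seen in most of the genome. In a population of nuclei, an interval with a low efficiency is one in which more LL DNA remained relative to HL DNA, and the value covers all the bases between the ends of the interval.

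The contrast between the short stretch called at 15 minutes and the rest of the same 3-hour interval is best seen in the letters. In the sequences that follow, all from the plus strand of hg38 and read 5′ to 3′, CpG dinucleotides are in capitals. The first pair comes from the interval at LLGL1, which had the highest 15-minute Z-score of those that held at least 50% of their 15-minute interval, and the stretches lie at chr17:18225683-18225832 in the 15-minute part and at chr17:18224826-18224975 in the rest.
LLGL1, 15-minute part: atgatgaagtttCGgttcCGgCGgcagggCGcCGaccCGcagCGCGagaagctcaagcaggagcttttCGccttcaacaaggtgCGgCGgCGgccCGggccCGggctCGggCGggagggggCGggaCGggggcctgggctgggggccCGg
LLGL1, rest of the 3-hour interval: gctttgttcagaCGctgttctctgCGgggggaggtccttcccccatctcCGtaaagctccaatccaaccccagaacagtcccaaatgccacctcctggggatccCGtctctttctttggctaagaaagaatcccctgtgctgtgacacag
The first stretch of 150 bp held 19 CpG and a GC content of 74.7%, and the second held 4 CpG and 55.3%. The same contrast was present at MTSS2, at chr16:70686054-70686203 and chr16:70684576-70684725.
MTSS2, 15-minute part: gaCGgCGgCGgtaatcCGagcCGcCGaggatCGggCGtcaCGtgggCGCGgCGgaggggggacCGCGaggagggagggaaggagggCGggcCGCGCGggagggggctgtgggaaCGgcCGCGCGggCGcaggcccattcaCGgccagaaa
MTSS2, rest of the 3-hour interval: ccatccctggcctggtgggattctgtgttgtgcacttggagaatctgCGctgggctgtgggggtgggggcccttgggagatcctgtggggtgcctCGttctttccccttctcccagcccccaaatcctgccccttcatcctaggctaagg
Here the 15-minute part held 24 CpG and the rest held 2. By the same condition, the interval with the highest Z-score outside genes lay near EML1, and its stretches are chr14:99730276-99730425 and chr14:99731426-99731575.
EML1, 15-minute part: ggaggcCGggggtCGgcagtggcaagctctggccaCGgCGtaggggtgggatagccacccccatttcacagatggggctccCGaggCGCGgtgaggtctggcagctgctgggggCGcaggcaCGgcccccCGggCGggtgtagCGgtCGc
EML1, rest of the 3-hour interval: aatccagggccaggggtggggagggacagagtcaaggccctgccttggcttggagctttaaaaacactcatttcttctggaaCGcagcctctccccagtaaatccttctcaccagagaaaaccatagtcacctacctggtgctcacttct
These held 13 CpG and 1 CpG. The interval with the next highest Z-score by this ranking, whose nearest protein-coding gene start was that of FGFR3, had a GC content of 75.9% over its whole 15-minute part and of 65.5% in the rest, with CpG ratios of 0.685 and 0.274, but the central stretches shown, of the same length, did not differ in this way between chr4:1767326-1767475 and chr4:1770226-1770375.
FGFR3, 15-minute part: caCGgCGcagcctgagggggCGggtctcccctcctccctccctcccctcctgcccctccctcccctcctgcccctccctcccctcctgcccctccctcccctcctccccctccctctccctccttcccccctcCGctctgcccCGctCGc
FGFR3, rest of the 3-hour interval: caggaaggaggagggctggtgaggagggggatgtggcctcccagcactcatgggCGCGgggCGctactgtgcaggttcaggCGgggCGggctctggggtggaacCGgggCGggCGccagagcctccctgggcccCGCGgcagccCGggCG
Its 15-minute stretch held 6 CpG at a GC content of 77.3%, mostly as a repeat of C and T, against 12 CpG and 76% in the rest. For comparison, a low-efficiency interval of median length and GC content, within GLIS1, was not called at 15 minutes. Its central 150 bp, chr1:53509676-53509825, held 3 CpG and a GC content of 59.3%, against 64% over the whole interval.
GLIS1, not called at 15 minutes: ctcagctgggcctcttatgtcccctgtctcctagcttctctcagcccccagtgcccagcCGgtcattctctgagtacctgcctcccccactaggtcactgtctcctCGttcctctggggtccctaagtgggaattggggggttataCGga

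Low-efficiency origins were rarely present in the 15-minute list. Of all 3-hour intervals, 40.1% shared a base with a 15-minute interval, against 4.55% of the low-efficiency intervals (exact Clopper-Pearson 95% interval 4.10 to 5.03%). This difference was not tested, because the rule used both the efficiency and the 15-minute calls. Intervals covering counting error only are given for this share and the others. Along the low-efficiency range itself the share rose from 1.69% in the fifth of intervals with the lowest efficiency to 8.65% in the fifth next to the limit. Members had a median efficiency of 0.827, and the comparison intervals a median of 0.818. The 3 members nearest the upper limit of the class had efficiencies from 0.8417 to the limit itself, and the 3 intervals with a 15-minute overlap just beyond it had efficiencies of up to 0.8423. On the inner side these were an interval over the LINC01342 start, one in BAHCC1 and one over the SLC7A4 start, with 15-minute Z-scores of -1.24, -1.14 and -1.24. On the outer side they lay over the starts of PPP1R14A, IRF2BP1 and CPLX1, with Z-scores of -0.41, -0.46 and 0.95.

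Members were long. Their median length was 2100 bp (quartiles 1300 and 3200 bp, range 300 to 18200 bp), against a median of 500 bp (quartiles 400 and 900 bp) in the comparison and of 1000 bp in the 6715 high-efficiency intervals with a 15-minute overlap. Only 4 of the 363 members were of the smallest deposited length, 300 bp, against 1794 of the 7617 comparison intervals. The share of low-efficiency intervals called at 15 minutes was 0.26% (10 of 3880) at 300 to 500 bp, 6.54% (63 of 963) at 1000 to 1400 bp and 32.5% (112 of 345) at 3000 bp or more. An interval with more bases can meet a 15-minute interval more easily, and the part of this in the increase was not tested. At the same lengths the other efficiency classes were called more often, with 88% (264 of 300) of the medium and 96.0% (97 of 101) of the high-efficiency intervals of at least 3000 bp.

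**Figure D1:**
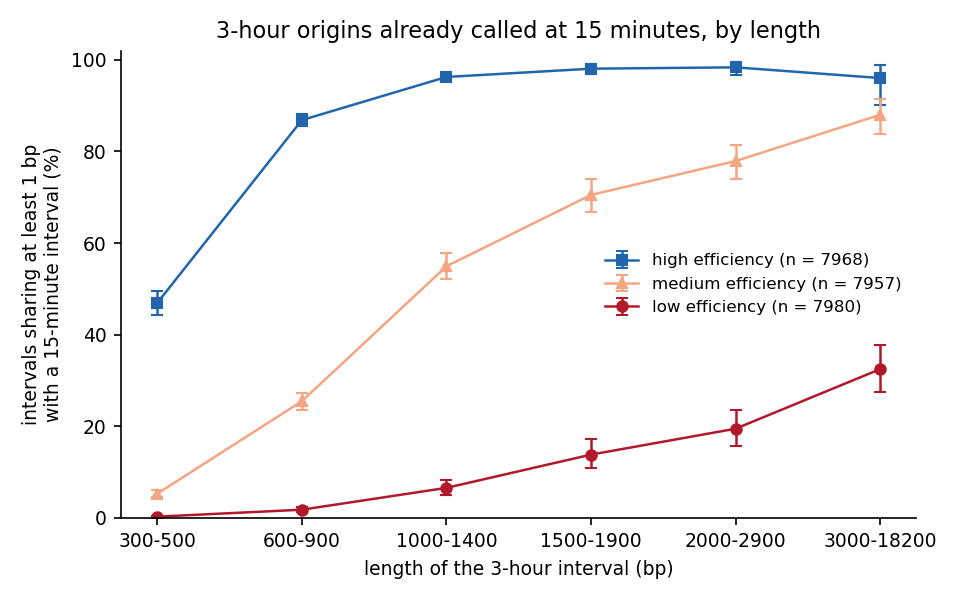
Share of 3-hour intervals that shared at least 1 bp with a 15-minute interval (y axis, percent) in 6 groups of interval length (x axis, bp), for the low, medium and high efficiency classes, with exact Clopper-Pearson 95% intervals as bars. The low class stays below the medium and high classes in each length group and reaches 32.5% at 3000 bp or more.

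The 15-minute call occupied a small part of each member. The bases shared with the 15-minute interval of largest overlap had a median of 400 bp. All bases shared with 15-minute intervals covered a median of 20.97% of the member (quartiles 14.3 and 28.6%), whereas in high-efficiency intervals the 15-minute call covered a median of 72.7%. From members of up to 900 bp to members of at least 3000 bp, the median shared length went from 200 to 600 bp while the median share covered went from 33.3 to 13.0%. In 297 members (81.8%) the 15-minute interval lay wholly inside, in 20 more at least 50% of it did, and in 46 (12.7%) less than 50% of it did. In those 46 the shared bases had a median of 200 bp, and 21 members shared exactly 100 bp, the width of a caller window. The 15-minute interval also touched another 3-hour interval in 13 members, and in 9 of these the other interval held the larger overlap. More than 1 separate 15-minute interval was found in 11 members. For these, the shared length, Z-score, CpG ratio, motif density, gene start and SNS-seq peaks of the part refer to the interval of largest overlap. The share covered and the GC content of the part use all their 15-minute intervals.

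**Figure D2:**
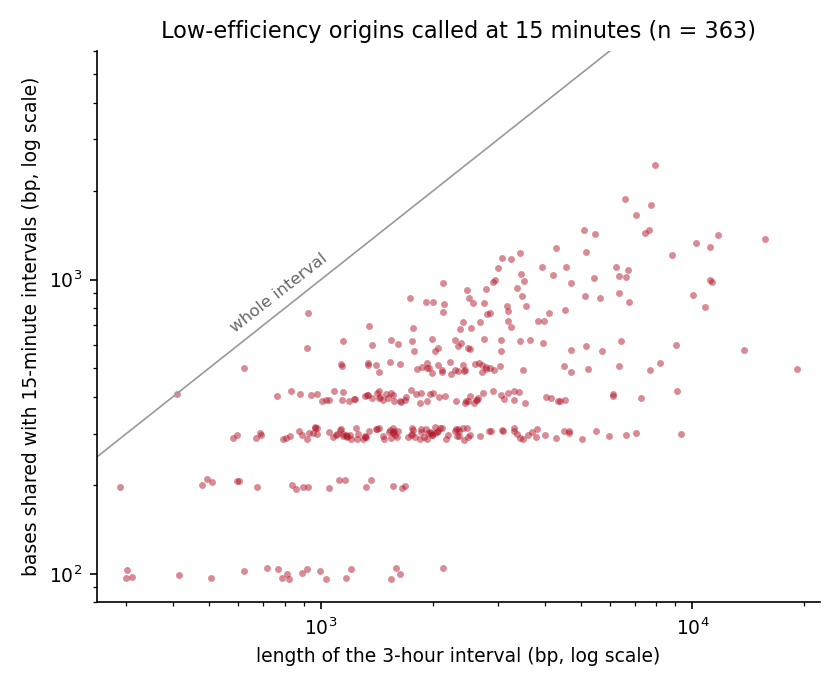
Bases shared with the 15-minute interval of largest overlap (y axis, bp, log scale) against the length of the 3-hour interval (x axis, bp, log scale) for the 363 members, 1 point each, moved at random by up to 5% on both axes so that equal values can be seen. The grey line marks a part as long as the whole interval, and the points fall away from it as length grows, with a median shared length of 600 bp among members of at least 3000 bp.

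Wholly included 15-minute intervals lay at varied distances from the centre of the member. Their centre lay a median of 500 bp from the centre of the 3-hour interval. As a share of the way from the centre to an end, the median was 42.9% (quartiles 25 and 59.6%). Whether this departs from random placement within the member was not tested. The 15-minute Z-scores of members had a median of -0.84 and ranged from -2.03 to 2.31, and those of high-efficiency intervals had a median of 0.24. Z-scores were alike in short and long members, with a median Z-score of -0.96 for members of up to 900 bp and of -0.86 for those of at least 3000 bp.

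The 15-minute part stood out in base composition. Its mean GC content was 73.4% ± 3.74 (SD, n = 362 members with at least 100 bp outside it), and that of the rest of the same intervals was 63.2% ± 2.89. The mean difference per chromosome was 10.5 percentage points ± 1.84 (SD over 19 chromosomes with at least 5 members), positive in 19 of 19 chromosomes (two-sided permutation test, with the sign of each chromosome's difference flipped at random, adjusted p = 1.83e-05, adjusted over 11 tests). Over single members the GC content was higher in the 15-minute part in 357 of 362, and the largest opposite difference was -13.4 points, in a member that held less than 50% of its 15-minute interval. With only the 300 bp on each side of the 15-minute interval as the reference, the difference was 9.95 points. High-efficiency intervals had a similar split, with 74.4% ± 2.83 in the part called at 15 minutes (n = 6715) and 64.5% ± 5.09 in the rest (n = 6109), so the split was not particular to the low class.

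**Figure D3:**
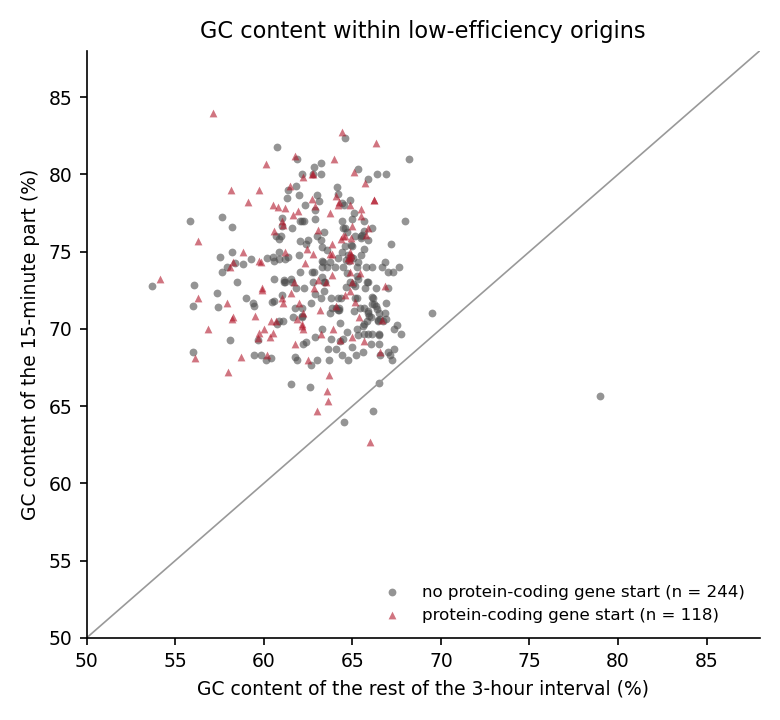
GC content of the 15-minute part (y axis, percent) against that of the rest of the same 3-hour interval (x axis, percent) for 362 members, 1 point each, with triangles for members over a protein-coding gene start and circles for the others. Nearly all points lie above the grey line of equal values, with means of 73.4% and 63.2%.

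CpG dinucleotides followed the same division, and G-quadruplex motifs did so only on average. The ratio of observed to expected CpG had a mean of 0.723 in the 15-minute part and of 0.412 in the rest, and it was higher in the part in 327 of 362 members (90.3%). A 15-minute part with a GC content above 50% and a ratio above 0.6, the usual composition criterion for a CpG island, was found in 271 members (74.7%), whereas 91 whole members (25.1%) and 911 whole comparison intervals (11.96%) met it. Of high-efficiency intervals with a 15-minute overlap, 97.7% met it over their whole length. G-quadruplexes are folded structures of stacked guanines, and their motif was searched on both strands as 4 runs of at least 3 G separated by loops of 1 to 7 nt. The motif had a mean density of 3.37 per kb in the 15-minute part and of 1.59 per kb in the rest of the member. The medians were 2.5 and 1.51 per kb, and the lower quartile in the part was 0. These values were not tested between part and rest.

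Over their whole length, members differed less from the comparison intervals. Their mean GC content was 65.4% ± 2.21 (SD, n = 363) against 63.6% ± 3.20 (SD, n = 7617), with a mean difference per chromosome of 1.86 points ± 0.773 (SD over 19 chromosomes), positive in 19 of 19 (permutation test by sign flips, adjusted p = 1.83e-05). The CpG ratio was 0.498 ± 0.157 against 0.340 ± 0.195, a difference of 0.168 ± 0.0486, positive in 19 of 19 (permutation test by sign flips, adjusted p = 1.83e-05). Because members were longer, both were also computed within 5 length groups, where the differences were 0.93 points and 0.145 and remained past the threshold. These groups matched length only coarsely, as 256 members were at least 1500 bp long. Among intervals of at least 1500 bp, again within 5 length groups, the differences were 0.49 points and 0.106, also past the threshold. G-quadruplex motifs had a density of 2.04 per kb in members and 1.64 per kb in the comparison (difference 0.325, positive in 14 of 19, permutation test by sign flips, adjusted p = 0.00264). Within length groups this difference was 0.0969 (permutation test, adjusted p = 0.336), and it was no longer past the threshold.

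A measure located without the use of the 15-minute positions gave a larger difference in GC content. Members were still chosen for sharing bases with a 15-minute interval, so this measure is not independent of the calls. In each interval the GC-richest stretch of 300 bp was located on the 100 bp grid of the caller. It had a mean GC content of 75.5% ± 4.78 in members and of 66.1% ± 4.30 in the comparison. Among intervals of at least 1500 bp, compared within 5 length groups, the values were 76.7% ± 4.36 (n = 256) and 70.8% ± 2.59 (n = 966), with a mean difference of 5.55 points ± 1.48 (SD over 16 chromosomes), positive in 16 of 16 (permutation test by sign flips, unadjusted p = 2e-05). The CpG ratio of this stretch was 0.768 in these members and 0.463 in these comparison intervals (difference 0.297 ± 0.0704, positive in 16 of 16, permutation test by sign flips, unadjusted p = 2e-05). At least 150 bp of the GC-richest stretch lay within the 15-minute interval in 306 of the 363 members (84.3%). Long members thus held a stretch of higher GC content than comparison intervals of the same length did on average.

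**Figure D4:**
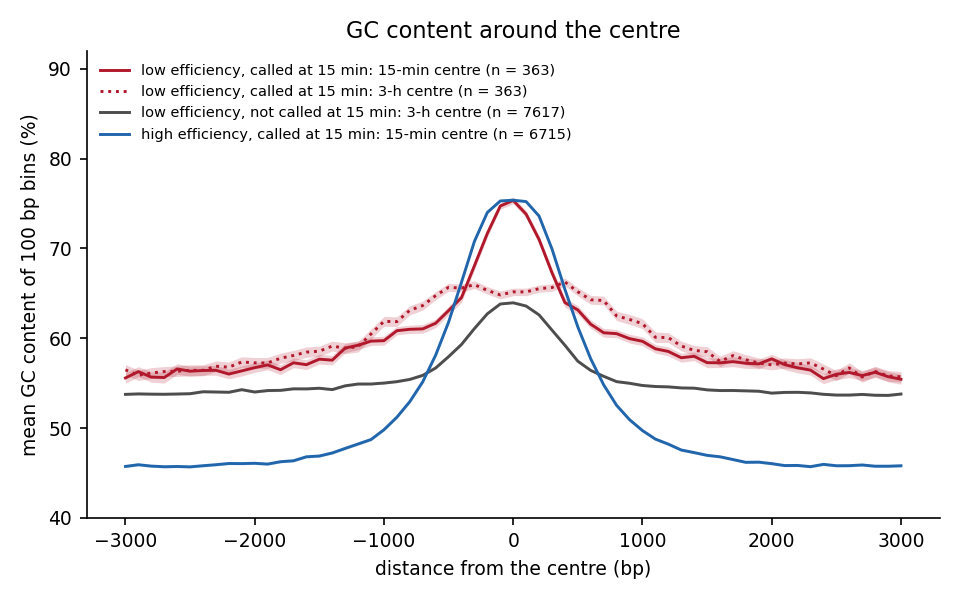
Mean GC content in bins of 100 bp (y axis, percent) up to 3 kb from the centre (x axis, bp), with bands of 1 standard error over intervals, which share regions and are not replicates. Around the 15-minute centre, members (solid red) reach 75.3%, as do high-efficiency intervals (blue, 75.4%), while members around their 3-hour centre (dotted red, 65.2%) and comparison intervals (grey, 63.9%) do not.

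The profiles also differed away from the centre. At 1 kb from the 15-minute centre the mean GC content was still 59.7% in members, against 49.8% in high-efficiency intervals, and at 3 kb it was 55.6% against 45.7%. Median lengths were 2100 bp and 1000 bp, so a point at 1 kb can lie inside a member but outside a high-efficiency interval. The profiles were not matched for length. At 3 kb the comparison intervals had 53.7%. The GC content at 9 to 10 kb on both sides of the 3-hour centre was 54.2% ± 7.41 in members and 52.5% ± 7.33 in the comparison, a mean difference of 1.34 points (permutation test by sign flips, adjusted p = 0.0161). Within length groups the difference turned to -1.65 points (permutation test, adjusted p = 0.00644), so its direction depended on length.

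Gene starts were frequent among members. The start of a protein-coding gene in GENCODE 44 lay within 118 of the 363 members (32.5%, 95% interval 27.7 to 37.6%) and within 615 of the 7617 comparison intervals (8.07%). The mean difference per chromosome was 24.7 percentage points ± 10.01 (SD over 19 chromosomes), positive in 19 of 19 (permutation test by sign flips, adjusted p = 1.83e-05). It was 21.5 points within length groups and 20.2 points among intervals of at least 1500 bp, where 31.6% of members and 11.4% of comparison intervals held a start. High-efficiency intervals with a 15-minute overlap held one in 60.3%, so members lay between both groups. In 79 of the 118 members (66.9%) the start lay in the 15-minute part, which took up 19.2% of the bases of these members. Of these 118, 105 (89.0%) had a 15-minute part with the composition of a CpG island, and of the 245 members without a coding start 166 (67.8%) did.

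The remaining members were assigned in the order of other gene starts, exons and introns. The start of a gene of another kind, such as a long non-coding RNA, was the place of 36 members. A further 119 lay over coding sequence, 15 over other exons, 33 in introns and 42 (11.6%) outside any annotated gene. In the comparison, introns and sequence outside genes were the place of 29.7% and 22.5%. The lower share outside genes had a mean difference of -10.1 points (negative in 14 of 19, permutation test by sign flips, adjusted p = 0.00264), but it was -5.83 points within length groups (permutation test, adjusted p = 0.0512) and -0.26 points among intervals of at least 1500 bp. The 15-minute part had a mean GC content between 72.2% outside genes and 73.9% over coding starts, and a mean CpG ratio of 0.646 and 0.807 in the same places. Members over coding starts had a median Z-score of -0.59, and those outside genes of -1.05.

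Among members holding at least 50% of their 15-minute interval, the 8 with the highest Z-scores included 7 over the start of a protein-coding gene. The interval at the start of LLGL1, which encodes a cell polarity protein of the Scribble group, spans chr17:18224401-18226500 with an efficiency of 0.820 and a Z-score of 2.14. Its 15-minute part of 600 bp had a GC content of 80.7% and a CpG ratio of 0.980, and the remaining 1500 bp had 60.1% and 0.391. The interval over the start of RASGEF1C, a guanine nucleotide exchange factor for Ras proteins, had an efficiency of 0.839, a Z-score of 2.13 and a GC content of 82.7% in the part against 64.4% in the rest. The interval at EGFL7, a secreted factor of endothelial cells, was 10900 bp long, but only 1300 bp of it was called at 15 minutes, with a Z-score of 2.00 and a GC content of 79.5% against 65.7%. At MTSS2, which encodes a protein that links membranes to actin, 900 of 2600 bp were called with a Z-score of 1.94. The annotated gene start lay in the 15-minute part at LLGL1, RASGEF1C and MTSS2 but not at EGFL7, and in each of these regions the part called early was richer in GC than the rest of the same interval.

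The next of these 8 regions lay within an intron of SKOR1, a transcriptional corepressor, at chr15:67822901-67823500, and was the shortest at 600 bp. Its 15-minute part of 300 bp had a Z-score of 1.65 and a GC content of 80.3% against 65.3% in the rest, and a high-efficiency interval lay within 10 kb. The interval over EPPK1, which encodes the cytoskeletal linker epiplakin, was 9400 bp long and had the smallest share called, 6.38%. The interval of 5100 bp with the starts of SOX18, a transcription factor of vascular development, and TCEA2, a transcription elongation factor, had a Z-score of 1.53 over a part of 1500 bp. CABP7, a calcium-binding protein, had the same Z-score over 1300 of 4300 bp. Among members over coding starts PWWP2B, a chromatin protein, came next, with 1800 of 7700 bp called and a Z-score of 1.46.

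No expression was measured in these lists, so the activity of these genes in EJ30 cells is not known from them.

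Outside genes, the 6 members with the highest Z-scores among those that held at least 50% of their 15-minute interval spanned a wide range of surroundings. The interval near EML1, whose product binds microtubules, spans chr14:99730001-99732400 with a Z-score of 1.403 and a GC content of 79.2% in a part of 500 bp against 64.1% in the rest. The interval near FGFR3, a receptor of fibroblast growth factors, spans chr4:1764801-1772500, with a Z-score of 0.47 and 24 G-quadruplex motifs. Those near EXOC3L4, LHX2 and GPIHBP1 had Z-scores of 0.39, 0.27 and 0.08. The starts of FGFR3 and LHX2 lay 24643 and 39930 bp from the centres of their intervals. The interval with NSG2 as its nearest coding start lay 266444 bp from it, had a Z-score of 0.04 and had no other 3-hour interval within 10 kb. Each of these 6 overlapped peaks of both SNS-seq fractions.

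The 5 members of lowest efficiency, all at or below 0.801, included several that had a small overlap. The interval in HSPA12B, a member of the Hsp70 family, held its 15-minute interval of 300 bp wholly, with a Z-score of -1.78 and a GC content of 74.3% against 63.3%. The interval near C11orf96 shared 100 bp with a 15-minute interval of 2000 bp, only 5% of which lay inside, and a high-efficiency interval lay within 10 kb. The intervals at C16orf90 and near MEIS3 each held 66.7% of a 15-minute interval of 300 bp. The interval in NRXN2, which encodes a synaptic adhesion protein, held 36.4% of one of 1100 bp. Without the 46 members that held less than 50% of their 15-minute interval, the differences in GC content, CpG ratio and coding starts were 1.76 points, 0.162 and 27.7 points.

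The 5 longest members showed how small the early part could be. The longest, chr4:1746001-1764200, lay outside genes, was 18200 bp long and held 45 G-quadruplex motifs and a pair of 15-minute intervals that covered 5.49% of it. The interval of 15900 bp with the starts of CEND1, PANO1 and SLC25A22, the last a mitochondrial glutamate carrier, had 1400 bp called at 15 minutes. In PLCH2, a phospholipase C, 8.21% of 13400 bp was called, and at HGFAC, a protease that activates hepatocyte growth factor, 16.2% of 11700 bp. At HGFAC and RGS12 the GC content of the part, 68.5%, was close to that of the rest, 66.6%. At VWA1, an extracellular matrix protein, it was 77.7% against 65.5%. The longest members were thus not alike in the composition of the part.

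Long purine tracts, which are runs of at least 30 nt of only A and G on either strand, were found in 34 members (9.37%) and in 424 comparison intervals (5.57%). The mean difference was 4.50 points ± 7.999 (SD over 19 chromosomes), positive in 13 of 19 (permutation test by sign flips, adjusted p = 0.022). Of the comparison intervals of at least 1500 bp, 8.70% held a tract, and the part of length in the difference was not tested. Within length groups the difference was 2.80 points (permutation test, adjusted p = 0.168), and in intervals of at least 1500 bp it was -0.40. Within 5 groups of GC content it was 7.11 points (positive in 16 of 19, permutation test, adjusted p = 0.000234). The longest tract, of 233 nt, lay in a member of 7900 bp outside genes, chr9:136603501-136611400, for which EGFL7 had the nearest coding start, 51406 bp from the centre of the member. It is shown from chr9:136608075-136608327, plus strand of hg38, with the tract in capitals, because it is the clearest departure from the CpG-rich letters above.
Purine tract, near EGFL7: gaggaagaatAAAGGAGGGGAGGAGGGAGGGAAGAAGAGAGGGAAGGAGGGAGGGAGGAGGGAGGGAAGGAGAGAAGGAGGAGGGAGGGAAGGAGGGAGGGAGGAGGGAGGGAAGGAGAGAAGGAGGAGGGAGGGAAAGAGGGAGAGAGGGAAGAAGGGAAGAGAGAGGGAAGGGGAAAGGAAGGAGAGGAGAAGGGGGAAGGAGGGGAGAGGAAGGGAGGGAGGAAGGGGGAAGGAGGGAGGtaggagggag
This stretch of 253 bp had a GC content of 61.3% and no CpG. The pair of 15-minute intervals of this member had a GC content of 75.1% and lay outside the tract. The next longest tracts, of 211, 138 and 119 nt, were found in the members at the LINC02904 start, at RFLNA and at PLXNB2, the last a receptor of semaphorins.

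Nascent strands from the same cell line covered nearly all members. SNS-seq isolates short strands with an RNA primer from growing cells, and its peaks were called independently of ini-seq 2. A peak of the 0.5 to 2 kb fraction overlapped 352 members (97.0%, 95% interval 94.6 to 98.5%) and 57.8% of comparison intervals, against 78.0% of all 3-hour intervals. A peak of the 2 to 4 kb fraction overlapped 361 members (99.4%) and 85.5% of comparison intervals, against 91.3% of all. The mean differences per chromosome were 40.3 and 14.6 points (each positive in 19 of 19, permutation test by sign flips, adjusted p = 1.83e-05). Longer intervals meet a peak more often. Within 5 length groups over all members the differences were 10.9 points (positive in 17 of 19, permutation test, adjusted p = 0.0001) and 2.77 points (positive in 15 of 19, permutation test, adjusted p = 0.0246), both past the threshold. Among intervals of at least 1500 bp, compared within length groups, where few intervals of either group lacked a peak, they were 0.81 points (permutation test, adjusted p = 0.582) and 0.31 points (permutation test, adjusted p = 0.41). There, 98.8% of members and 95.4% of comparison intervals had a peak of the shorter fraction. At 600 to 900 bp the shares were 82.4% of 34 members and 62.9% of 1881 comparison intervals. Within the 15-minute part alone, 342 members (94.2%) had a peak of the shorter and 361 (99.4%) of the longer fraction. The share for other stretches of the same length was not computed, so these shares do not set the part apart. Only 1 member had a peak of neither fraction over its whole length, against 13.7% of comparison intervals. From 1500 bp on, 0 of 256 members and 7 of 966 comparison intervals (0.725%) had neither, so the groups were close there.

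**Figure D5:**
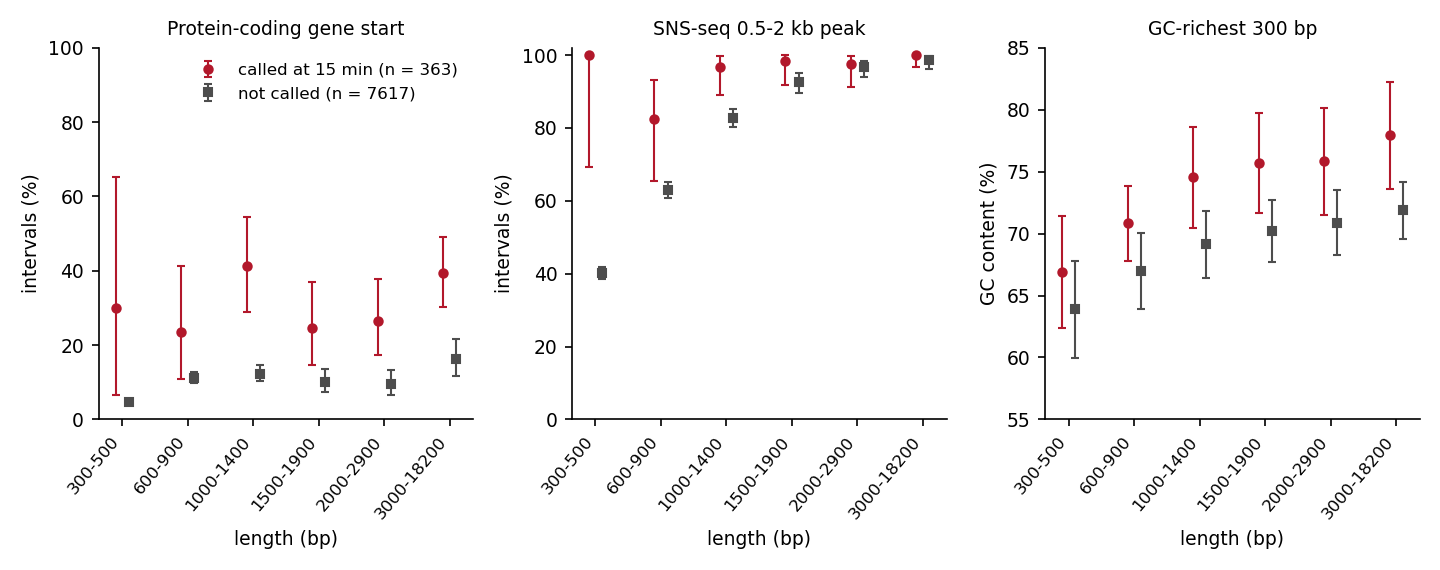
Low-efficiency intervals called at 15 minutes (red) and not called (grey) in 6 groups of length (x axis, bp): percent over a protein-coding gene start and percent with an SNS-seq 0.5-2 kb peak, with exact Clopper-Pearson 95% intervals, and mean GC content of the GC-richest 300 bp with SD. At each length members have the higher share of gene starts and the higher mean GC content, although the SD bars overlap. From 3000 bp on these values are 39.3% against 16.3% and 77.9% against 71.9%, while the SNS-seq shares meet at 100% and 98.7%. Members number only 10 at 300 to 500 bp and 34 at 600 to 900 bp.

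Members often had other 3-hour intervals nearby. A median of 2 other 3-hour intervals was found within 10 kb of a member and 1 within 10 kb of a comparison interval, and 78 members (21.5%) had none. In high-efficiency intervals with a 15-minute overlap this last share was 72.6%. Among intervals of at least 1500 bp the order turned, with a median of 2 other intervals near members and 3 near comparison intervals, and with none near 14.8% and 9.73%, and these counts were not tested. A high-efficiency interval lay within 10 kb of 88 members (24.2%) and of 16.7% of the comparison, a mean difference of 6.10 points ± 9.78 (SD over 19 chromosomes), positive in 14 of 19 (permutation test by sign flips, adjusted p = 0.0168). It was 2.62 points when only members with at least 50% of a 15-minute interval inside were kept (permutation test, adjusted p = 0.35) and 4.71 points within length groups (permutation test, adjusted p = 0.0673), and neither value was past the threshold. Without intervals over a coding start it was 11.5 points (positive in 14 of 16, permutation test, adjusted p = 0.00194). Against comparison intervals more than 10 kb from any 15-minute interval it was 19.2 points. That condition itself leaves out comparison intervals near most high-efficiency intervals, so no conclusion is drawn from this value.

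Members were found on each autosome. Chromosomes 17, 19, 1 and 11 held 38, 37, 35 and 31 of them. As a share of the low-efficiency intervals of a chromosome, members ranged from 2.24% on chromosome 10 (exact 95% interval 0.904 to 4.55%) to 7.98% on chromosome 8 (4.87 to 12.2%), and differences between chromosomes were not tested. No member was on chromosome X, with 0 of 18 low-efficiency intervals, which allows a share of up to 18.5% by the exact interval. Members within 5 Mb of a chromosome end made up 48.5%, and comparison intervals 39.1%, but among intervals of at least 1500 bp the shares were 54.7% and 67.6%, and these were not tested.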

How the data were processed

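All positions are on hg38. For ini-seq 2, reads were aligned by the authors with bowtie2 and reduced to unique reads without duplicates. Their caller compared HL with LL counts, relative to library totals, in windows of 100 bp, joined windows that lay within 500 bp and had a log2 ratio of 2 or more, and kept intervals with HL/(HL + LL) of at least 0.8. The deposited 3-hour value is this fraction, although its heading reads Z-score, and pools 2 biological replicates. The deposited 15-minute value is a score, a Z-score over its list, and its replicates are not named. SNS-seq peaks were called by the authors with MACS2 against genomic DNA, a library not analysed here, and only positions are used. No list holds counts, so the depth behind each interval is unknown.

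Sequence was read from hg38 and genes from GENCODE 44 (Python 3.11.15, numpy 2.4.6, scipy 1.17.1, pysam 0.24.0). Length and efficiency were not tested. For other measures the mean of members minus that of comparison intervals was taken per chromosome with at least 5 members, and signs were flipped 100000 times (two-sided permutation test, smallest p 1e-05), with Benjamini-Hochberg adjustment over 11 tests. Chromosomes are not replicates of the experiment, so p-values describe the spread between chromosomes of 1 map. The test was tested on simulated data. The GC-richest 300 bp, the composition criterion and the comparison of intervals of at least 1500 bp were added after the data were seen. Named regions were the 8 of highest Z-score, the 8 over coding starts and the 6 outside genes of highest Z-score (each with at least 50% of the 15-minute interval inside), the 5 of lowest efficiency, the 5 longest, the 4 with the longest purine tracts, the 3 on each side of the limit and the typical comparison intervals. A planned measure of repeat-masked bases was void, because the reference marks no repeats. Members and lists were chosen with earlier results of these data known.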

Additional observations from a re-analysis of the deposited data

How the results depend on the processing

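Of 82 values computed under 9 alternative settings for the 11 tested differences, 64 kept their direction and their side of the threshold, 15 kept their direction but no longer passed and 3 turned. The differences in GC content, CpG ratio, coding gene starts and GC content of the 15-minute part passed under each setting they were run with. Requiring at least 50% of a 15-minute interval inside lowered the difference in high-efficiency neighbours to 2.62 points. Within 5 length groups, the values that no longer passed were 0.0969 G-quadruplex motifs per kb, 2.80 points for purine tracts, -5.83 points outside genes and 4.71 points for high-efficiency neighbours, and flank GC content turned to -1.65 points. Within 5 efficiency groups purine tracts gave 3.84 points, and within 5 GC groups flank GC content gave 0.63 points. Without intervals over a coding gene start, purine tracts gave 0.991 points, outside genes -7.32 points and flank GC content 1.43 points. For intervals of at least 1500 bp within 5 length groups, a setting chosen after seeing the data, the values that did not pass were 0.163 motifs per kb, -0.26 points outside genes, 4.73 points for high-efficiency neighbours, 0.81 points for the SNS-seq 0.5 to 2 kb and 0.31 points for the 2 to 4 kb fraction, while purine tracts turned to -0.40 and flank GC content to -1.60 points. Values that still passed but moved by over 1.5 times were, within 5 length groups, 0.931 points of GC content and 10.9 and 2.77 points for the shorter and longer SNS-seq fraction, within 5 GC groups, 0.189 motifs per kb, 7.11 points for purine tracts and 8.80 points for the longer SNS-seq fraction, against comparison intervals over 10 kb from a 15-minute interval, 2.58 points of flank GC content and 19.2 points for high-efficiency neighbours, without coding starts, 11.5 points for high-efficiency neighbours, and from 1500 bp on, 0.49 points of GC content and 0.106 in CpG ratio. The 19.2 points came under a condition that itself leaves out comparison intervals near most high-efficiency intervals, so no conclusion is drawn from that value. The intervals of at least 1500 bp held 256 members, and the 16 chromosomes with at least 5 of these entered the tests. Beyond that the causes were not tested. No paired analysis was possible because each condition is 1 list, and for the same reason no replicate could be left out. Without counts, no statement on depth per interval can be made.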
